A study of Mus musculus with 4 samples.

Results

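The immunoglobulin heavy chain constant region genes are the 8 exon clusters of the mouse Igh locus that set the class of an antibody: Ighm, Ighd, Ighg3, Ighg1, Ighg2b, Ighg2c, Ighe and Igha. They were taken by symbol from the expression lists of 2 RNA libraries, where all 8 had a value among 13792 genes. All 8 symbols matched their Ensembl identifiers in the reference tables, and all 8 are annotated as constant regions. The libraries came from naive B cells of C57BL/6 mice that had been given a retrovirus and were kept in culture with antibodies to IgM and CD40. The first mimics antigen at the receptor and the second mimics the help of T cells. In the control group the virus was RVKM-Empty, without insert, and in the other group it was RVKM-Ascl2, which carries the basic helix-loop-helix transcription factor Ascl2. Both groups share the strain, the infection and the culture, and the labels name no cytokine. Age, sex, the number of mice, the time in culture and any sorting of infected cells are not stated in the labels. Chromatin samples of germinal centre B cells from KLH-immunised mice also belong to the series and are not analysed here.

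A B cell first makes IgM and IgD, whose messages come from 1 long transcript of the rearranged locus that is spliced to the Ighm or to the Ighd exons. Class switch recombination then deletes the DNA between the variable region and a downstream constant region, so that IgG, IgE or IgA is made with the same antigen specificity. Before switching, each downstream gene is transcribed from its own promoter into a germline transcript that does not code for an antibody chain but holds the same constant exons. A value per gene therefore sums messages of switched cells, germline transcripts, and the membrane and secreted forms, and the present values do not separate them.

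Each group had 1 library, so no value has a replicate error, no test was possible, and every difference below compares these libraries only. Values are abundances per gene as deposited, and their sums were 750692 in RVKM-Empty and 763932 in RVKM-Ascl2. The number of reads behind a value is not known, and levels and shares are therefore given without an interval. The inserted gene Ascl2 had a value of 0.0809 in RVKM-Empty and 29.4 in RVKM-Ascl2, in the direction of the labels. All 5 B cell markers looked at were listed, with values from 98.4 to 748 in RVKM-Empty and from 97.7 to 626 in RVKM-Ascl2. Of 8 T cell markers only Lck was listed, at 21.7 and 17.8. The 6 listed of 11 myeloid markers summed to 45.2 and 50.1, and the 4 listed of 6 mast cell and basophil markers to 16.3 and 20.5. In RNA taken from many cells together, fewer cells of a type and less RNA per cell cannot be told apart.

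The locus lies on chromosome 12, and on GRCm38 the 8 genes span 167 kb. Transcription runs from Ighm towards Igha, which is towards lower coordinates. Ighm lies at 113418826 to 113422730 and Ighd, 2.5 kb further along, at 113407535 to 113416324. After a gap of 46.3 kb come the IgG genes, Ighg3 at 113357442 to 113361232, Ighg1 at 113326541 to 113330523, Ighg2b at 113304314 to 113307933 and Ighg2c at 113287389 to 113288932. Ighg2c is the form of this gene that C57BL/6 mice carry. Ighe at 113269263 to 113273248 and Igha at 113256204 to 113260236 close the cluster. Each interval is that of the RefSeq gene, introns included.

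Ighm, the constant region of the IgM heavy chain, was the highest of the 8 genes in both libraries and was higher in RVKM-Ascl2. Its value was 4124 in RVKM-Empty and 7629 in RVKM-Ascl2, a ratio of 1.85. By value it was number 21 of all 13792 genes in RVKM-Empty and number 9 in RVKM-Ascl2. The log2 ratio, computed here and below after 1 was added to each value, was 0.89. A total of 97.96% of the 12283 genes that reached 1 in either library had a lower ratio. Among the 104 genes that reached 1000 in either library, 10 were immunoglobulin genes, Ighm included. Of the 104, 4 had a higher ratio than Ighm, and 3 of these 4 were other immunoglobulin genes.

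Ighd, spliced from the same transcript as Ighm, went the other way. Its value was 55.6 in RVKM-Empty and 46.2 in RVKM-Ascl2, a ratio of 0.831. Ighm was 74.1 times Ighd in RVKM-Empty and 165 times Ighd in RVKM-Ascl2. The pair of classes made before switching thus differed in direction between these libraries. The Ighd difference was moderate in size. Among the 12283 genes compared, 60.5% had a smaller log2 ratio in absolute value.

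The IgG genes also did not share a direction. Ighg1, the constant region of IgG1, was the highest of them, at 1189 in RVKM-Empty and 946 in RVKM-Ascl2. Its ratio of 0.796 (log2 ratio −0.33) was the lowest of the 8 genes. Among the genes that reached 1000, 27 of 104 had a lower log2 ratio than Ighg1. Ighg3, the constant region of IgG3 and the first IgG gene downstream of Ighd, was 54.4 in RVKM-Empty and 80.1 in RVKM-Ascl2. Its ratio of 1.47 (log2 ratio 0.55) was the highest after that of Ighm. Ighg2b, the constant region of IgG2b, was 25.8 and 34.6, a ratio of 1.34. Ighg2c, the constant region of IgG2c, was low in both libraries, at 3.04 and 2.96. The direction of the Ighg2c difference reversed when the Ascl2 library was rescaled to the same sum without immunoglobulin genes, and it is not read as a difference. The IgG constant regions are similar in sequence, and how reads were assigned among them is not stated, so the split between the subclasses is uncertain.

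Ighe, the constant region of IgE, was the third highest of the 8 genes in both libraries. Its value was 158 in RVKM-Empty and 181 in RVKM-Ascl2, a ratio of 1.15. Igha, the constant region of IgA and the last gene of the locus, was the lowest of the 8. It was 0.969 and 0.973, under the value of 1 used here as the minimum for comparing a gene, so it is left out of the counts. Its direction reversed when both libraries were set to the same sum.

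**Figure D1:**
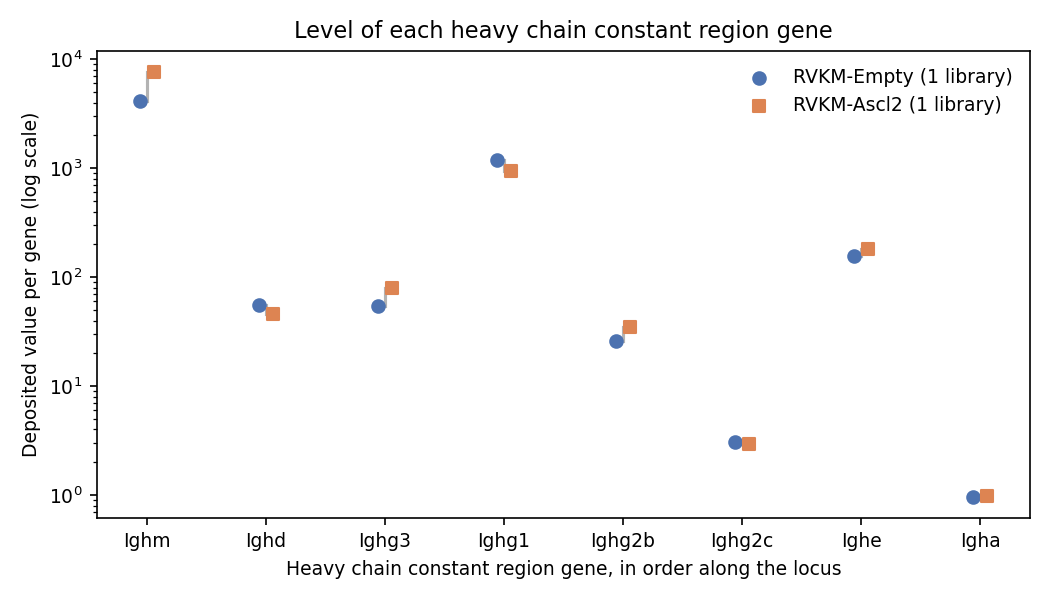
Deposited value of each heavy chain constant region gene (vertical axis, log scale) in the RVKM-Empty library (circles) and the RVKM-Ascl2 library (squares), with genes in their order along the locus and 1 library per group. Ighm stands highest in both libraries, at 4124 and 7629, and Igha lowest, at 0.969 and 0.973.

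The order of the levels was Ighm, Ighg1, Ighe, Ighd, Ighg3, Ighg2b, Ighg2c and Igha in RVKM-Empty. With Ascl2 the order was the same except that Ighg3 stood above Ighd. Ighd was 1.02 times Ighg3 in RVKM-Empty and 0.577 times in RVKM-Ascl2. Because there is no replicate spread, it cannot be said which neighbours in this order differ. An order between genes also needs values scaled for gene length, which the sources used here do not state. Ratios of the same gene between libraries do not need it.

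No member reached a 2-fold difference in either direction. Of the 7 members past the minimum value, 0 of 7 were past 2-fold, where 2.25% of all 12283 genes were (1.53% higher and 0.716% lower in RVKM-Ascl2). At 1.5-fold the count was 1 of 7, Ighm, beside 9.32% of all genes (5.01% higher and 4.31% lower). Ighg3 also passed 1.5-fold, for 2 of 7, when the RVKM-Ascl2 library was rescaled on sums that leave out immunoglobulin genes. Among the 7, the median log2 ratio was 0.20, and over all genes it was −0.01. The log2 ratios of the 8 genes ran from −0.33 for Ighg1 to 0.89 for Ighm, and 4 of the 7 past the minimum lay above 0, beside 48.4% of all genes. For scale, the central 95% of all genes ran from −0.69 to 0.80, so that Ighm lay outside this range and the other 7 genes inside it.

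**Figure D2:**
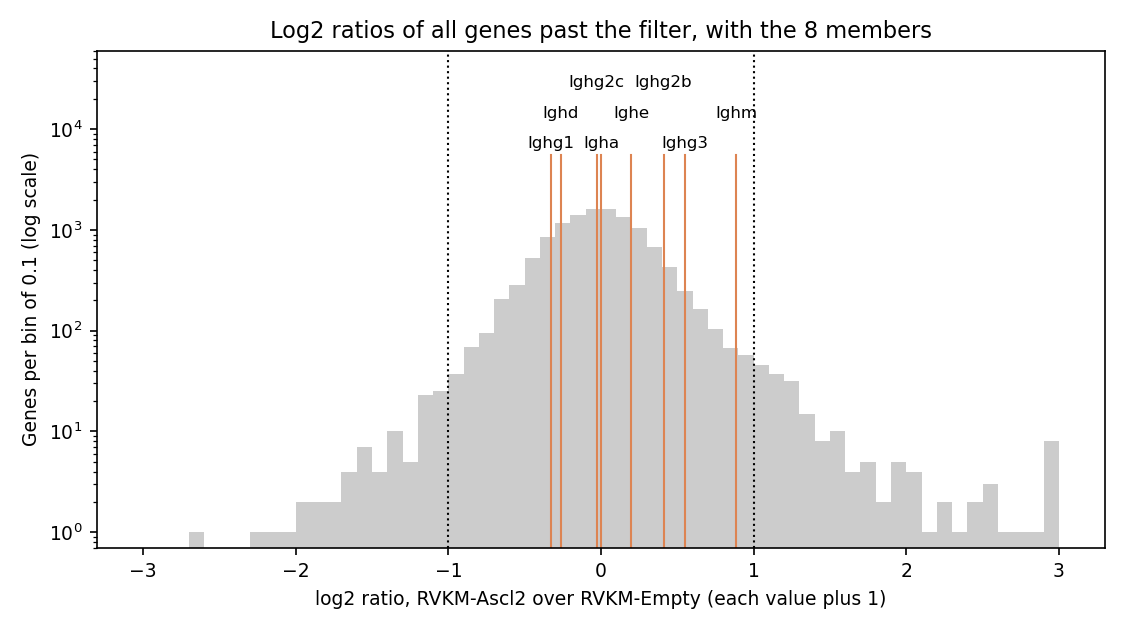
Distribution of the log2 ratio of RVKM-Ascl2 over RVKM-Empty (horizontal axis) over the 12283 genes that reached 1 in either library (vertical axis, genes per bin, log scale), with the end bins holding all genes beyond them. Coloured lines mark the 8 constant region genes, Igha included although it is under the minimum, and dotted lines mark 2-fold. All 8 lie between the dotted lines, from −0.33 for Ighg1 to 0.89 for Ighm.

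The makeup of the heavy chain total asks how the classes stood to each other within a library, a measure that no rescaling of a library can move. Per 100 of Ighm, Ighg1 was 28.8 in RVKM-Empty and 12.4 in RVKM-Ascl2. Ighe was 3.83 and 2.37 on this scale, and Ighd was 1.35 and 0.606. Ighg3 was 1.32 and 1.05, the smallest relative difference of the 7. Ighg2b was 0.626 and 0.454, Ighg2c was 0.0737 and 0.0388, and Igha was 0.0235 and 0.0127. All 7 genes were thus lower relative to Ighm in the Ascl2 library, by factors from 0.430 for Ighg1 to 0.796 for Ighg3. These factors do not depend on gene length either. Because Ighm is the common denominator, its own higher value enters all 7.

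**Figure D3:**
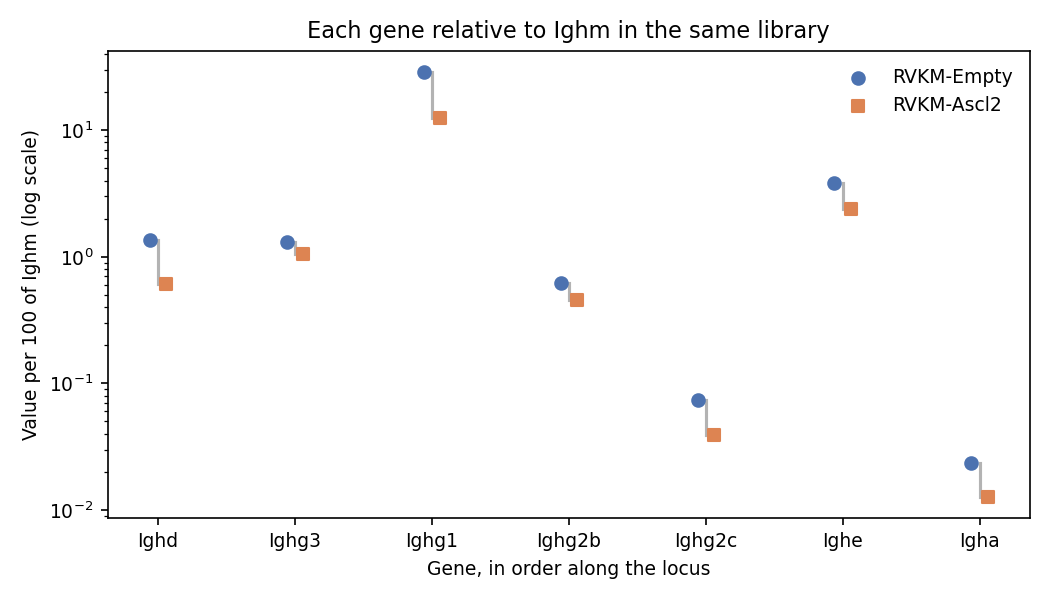
Value of each of the 7 other constant region genes per 100 of Ighm in the same library (vertical axis, log scale), for RVKM-Empty (circles) and RVKM-Ascl2 (squares), in order along the locus. Each square lies below its circle, with Ighg1 at 28.8 and 12.4 and Ighg3 at 1.32 and 1.05.

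As a share of the summed values of the 8 genes, Ighm took 73.5% in RVKM-Empty and 85.5% in RVKM-Ascl2. The size of a share, unlike the factors above, depends on scaling for gene length, which is not stated. Ighg1 took 21.2% and 10.6%, Ighe 2.81% and 2.03%, Ighd 0.991% and 0.518%, and Ighg3 0.970% and 0.898%. The shares of Ighg2b were 0.460% and 0.388%, while Ighg2c and Igha stayed under 0.06% in both libraries. The 6 genes downstream of Ighd, whose proteins are made after switching, together took 25.5% in RVKM-Empty and 14.0% in RVKM-Ascl2. Ighm and Ighd summed to 2.92 times these 6 genes in RVKM-Empty and 6.16 times in RVKM-Ascl2. A lower share of these 6 genes is not a measure of fewer switched cells, since germline transcripts are counted with them.

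Among the 7 genes other than Ighm, Ighe and Ighg3 took more of the sum in RVKM-Ascl2 and Ighg1 took less. Ighg1 took 79.98% of them in RVKM-Empty and 73.2% in RVKM-Ascl2, Ighe 10.6% and 14.0%, Ighg3 3.66% and 6.20%, Ighd 3.74% and 3.58%, and Ighg2b 1.74% and 2.68%. Ighe, Ighg3 and Ighg2b therefore had a lower share of the whole but a higher share of the rest. Within IgG, Ighg1 made up 93.5% in RVKM-Empty and 88.9% in RVKM-Ascl2, Ighg3 4.28% and 7.53%, and Ighg2b 2.03% and 3.26%.

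**Figure D4:**
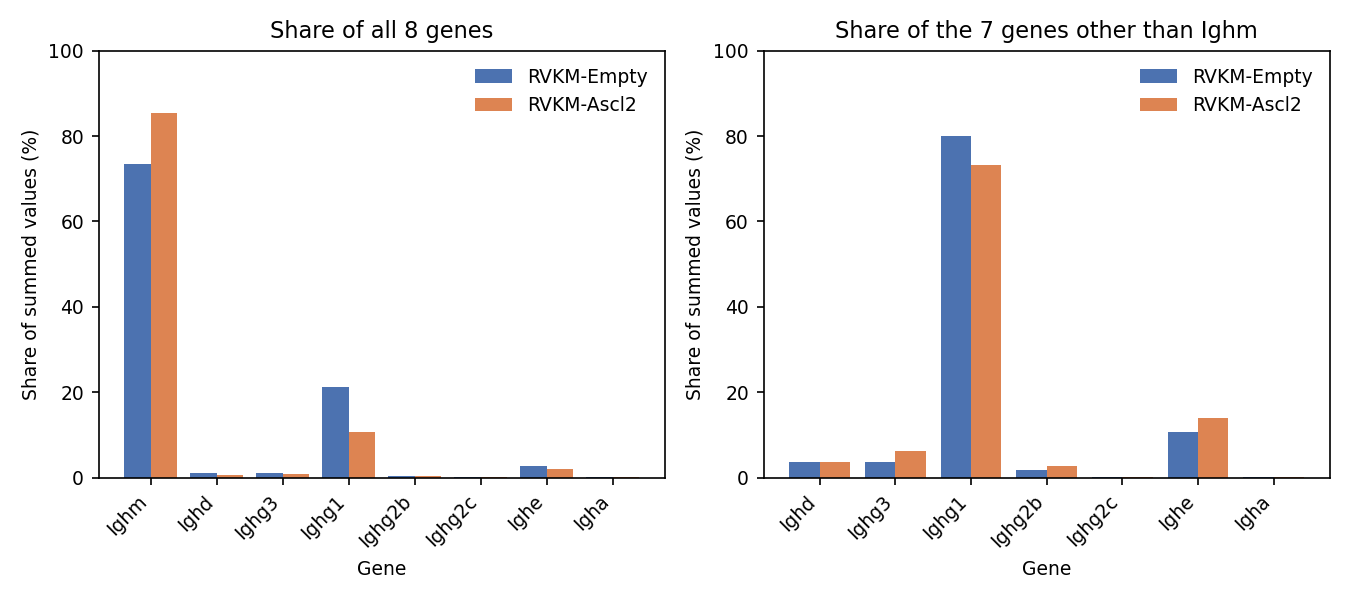
Share of each gene in the summed values (vertical axes, %) of all 8 genes (left) and of the 7 genes other than Ighm (right), for RVKM-Empty and RVKM-Ascl2. On the left Ighm stands at 73.5% and 85.5%, and on the right Ighg1 stands at 79.98% and 73.2%.

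The sum of the 8 genes was 5611 in RVKM-Empty and 8922 in RVKM-Ascl2, a ratio of 1.59. This was 0.747% and 1.17% of all values in the library. The sum was higher by 3311, and Ighm alone was higher by 3506, so the other 7 genes together were lower. Their sum was 1487 in RVKM-Empty and 1292 in RVKM-Ascl2, a ratio of 0.869. The difference of this sum was −195. That of Ighg1 alone was −243 and that of Ighd −9.42. The sum of the 5 other genes downstream of Ighd went the other way, from 242 to 299.7, a ratio of 1.24. Of these 5, Ighg3, Ighg2b and Ighe were higher, while Ighg2c and Igha were nearly level.

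The light chain constant regions, whose proteins pair with the heavy chains, had a sum dominated by Igkc, the kappa constant region, and did not share a direction. Igkc was 10479 and 17438, a ratio of 1.66, between those of Ighm and Ighg3. Of the lambda constant regions, Iglc1 was higher in RVKM-Ascl2 with a ratio of 1.36, Iglc2 had a ratio of 1.18 and Iglc3 was lower, with a ratio of 0.878. The 4 genes summed to 12929 in RVKM-Empty and 20119 in RVKM-Ascl2, a ratio of 1.56. Heavy over light constant regions stood at 0.434 and 0.443. The 115 listed heavy chain variable segments, which are joined to these constant regions in the same message, summed to 9335 and 18070, a ratio of 1.94. Variable over constant heavy chain values were 1.66 in RVKM-Empty and 2.03 in RVKM-Ascl2. The level of a ratio between different genes needs values scaled for gene length, which is not stated, so these levels do not count molecules. Jchain, which links IgM and IgA into polymers, was 113 and 301.2. It was the 1 of 5 genes of the light chain and joining chain list past 2-fold, beside 2.25% of all genes.

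Markers of plasma cells, which secrete antibody, had a higher sum in RVKM-Ascl2, as Ighm did, with Jchain giving most of the gain. The 7 listed of 8 summed to 464 in RVKM-Empty and 729 in RVKM-Ascl2, and 6 of the 7 had a log2 ratio above 0, beside 48.4% of all genes. Without Jchain the sum was 351 and 428, a ratio of 1.22. Of these 6 only Prdm1 was past 2-fold, beside 2.25% of all genes. Sdc1, which marks the plasma cell surface, was 2.99 and 2.37. The part of such cells in the higher Ighm value was not tested.

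Of 4 measured genes for partners of the antigen receptor, Cr2 was higher in RVKM-Ascl2, as Ighm was, and the others were lower. Cd79a and Cd79b, the signalling chains that every membrane immunoglobulin needs, were 665 and 748 in RVKM-Empty and 492 and 626 in RVKM-Ascl2. Cd81, a tetraspanin of the B cell coreceptor complex, was 165 and 149. Cr2, the complement receptor of that complex, was 7.35 and 30.5. It was the 1 of 4 members of this list past 2-fold, beside 2.25% of all genes. The median log2 ratio of the list was −0.20.

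Genes for splicing and 3′ end processing of the heavy chain message showed no 2-fold difference. Of 10 measured, 0 were past 2-fold, beside 2.25% of all genes. The log2 ratio was above 0 for 6 of them, beside 48.4% of all genes, with a median of 0.08. Zfp318, needed for the splicing that yields IgD, was 15.2 in RVKM-Empty and 18.0 in RVKM-Ascl2, while Ighd itself was lower. Ell2, an elongation factor that favours the secreted form of the message, was 29.4 and 36.6, and Pcf11, a 3′ end processing factor, was 28.7 and 34.6. Ptbp1, a splicing repressor, was 241 and 183, and U2af1, which recognises 3′ splice sites, was 85.4 and 69.2.

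Of 14 measured transcription factors that act on the heavy chain locus or in antibody-secreting cells, 2 were past 2-fold, both higher in RVKM-Ascl2. Over all genes, 2.25% were past 2-fold, with 1.53% higher in RVKM-Ascl2. Prdm1, the regulator of plasma cells, was 3.10 and 9.23, and Ets1, an ETS family factor, was 10.04 and 36.2. The octamer factor Pou2f1 was 13.5 and 16.5, and Irf4, which is needed for switching and for plasma cells, was 88.3 and 108.2. Tcf3, an E protein that binds the heavy chain enhancers, was 113 and 80.7, and the ETS family factor Spi1 was 21.5 and 15.4. Over the list, 10 of 14 had a log2 ratio above 0, beside 48.4% of all genes, and the median log2 ratio was 0.10. Some of these genes, Prdm1 and Irf4 among them, are also plasma cell markers above, so those counts are not independent.

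Factors and receptors that direct germline transcription showed no 2-fold difference. Of 24 measured, 0 were past 2-fold (2.25% of all genes were). The log2 ratio was above 0 for 7 of them (48.4% of all genes), with a median of −0.10. Batf, an AP-1 factor needed for germline transcription and switching, was 179 in RVKM-Empty and 115 in RVKM-Ascl2. Tnfrsf13b, a receptor for BAFF and APRIL, was 145 and 107, and Bcl6, which represses germline transcription of Ighe, was 12.2 and 9.36. Tgfbr1, a receptor chain for TGF-β, went the other way at 2.68 and 4.15.

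Genes that repair and join switch breaks were measured for 17 of 20 listed, and 1 was past 2-fold, beside 2.25% of all genes. The log2 ratio was above 0 for 11 (48.4% of all genes), with a median of 0.06. The gene past 2-fold was Hmces, which protects abasic sites, at 0.493 and 2.18. Its RVKM-Empty value is under the minimum of 1, so it was compared only through its RVKM-Ascl2 value, which is also low. The uracil glycosylase Ung was 21.6 and 13.7, the histone gene H2afx was 165 and 106, Mad2l2, part of the shieldin complex, was 20.95 and 14.8, and the break-sensing kinase gene Atm was 9.03 and 12.4.

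Receptors that bind the constant regions were measured for 5 of 6 genes. With 4 of them past the minimum value, 0 were past 2-fold (all genes: 2.25%). The log2 ratio was above 0 for 3 (all genes: 48.4%), with a median of 0.12. Fcmr, the receptor for IgM, was 145 in RVKM-Empty and 114 in RVKM-Ascl2, against the direction of Ighm. Fcer2a, the low-affinity IgE receptor CD23, was 1041 and 1053. Fcgr2b, the inhibitory IgG receptor, was 34.6 and 45.4, and Fcamr, a receptor for IgA and IgM, was 2.27 and 2.81.

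**Figure D5:**
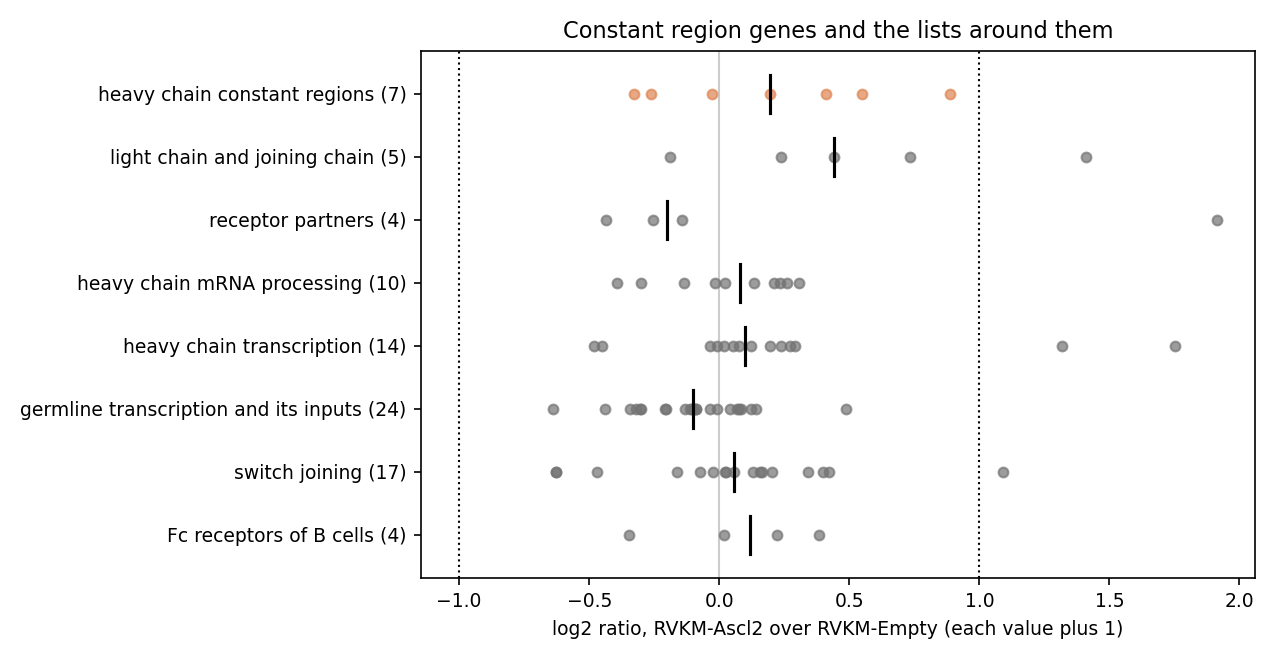
Log2 ratio of RVKM-Ascl2 over RVKM-Empty (horizontal axis) for the 7 constant region genes past the minimum value (top row) and for the genes of 7 lists around them, with the number of genes in parentheses. Each point is a gene, short bars are medians and dotted lines mark 2-fold. The top row runs from −0.33 to 0.89, with a median of 0.20.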

How the data were processed

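RNA of 2 libraries, 1 per group, was compared, with groups taken from the sample titles. The deposited files hold 1 signal value per gene, read here as an abundance that the authors scaled for depth, since values are not whole and the medians of both libraries are close (10.2 and 10.2). For scaling by length, the unit's name, the quantifier, the gene models and the use of strand, the sources used here say nothing. Trim Galore, Bowtie2, Picard, MACS2 and the build mm10 are named, per the submitters' processing notes, without roles or versions.

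No count model was used. Log2 ratios were taken after adding a pseudocount of 1, genes that reached 1 in either library were compared, and 2-fold was the limit. Shares and sums used the deposited values without a pseudocount. Coordinates came from RefSeq on GRCm38.p6, which mm10 is built on. Only the 2-fold call was tested on simulated data, with larger differences planted in genes well above the minimum. Shares, sums, rescalings and low values were not tested this way. Python 3.11.15, pandas 2.3.3 and numpy 2.4.6 were used.

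The members and the gene lists were chosen with earlier results of these data known. The text names all 8 members and, from each list, every gene past 2-fold, up to 4 others with the largest ratios, and a few fixed genes (Zfp318, Jchain, Igkc, Cd79a, Cd79b, Fcer2a and Fcgr2b). The lists leave out 1 gene that is not reported here. Sdc1 was named after its values were seen. Alternatives were pseudocounts of 0.1 and 5, 4 rescalings, a 1.5-fold limit, other filters and other denominators.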

Additional observations from a re-analysis of the deposited data

How the results depend on the processing

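Ighm, Ighg3, Ighg2b and Ighe stayed higher and Ighg1 and Ighd lower with Ascl2 under both pseudocounts and all 4 rescalings, 1 of which, leaving out immunoglobulin genes and Pcdh15, was chosen after seeing the data. Pcdh15 had a value of 481 in RVKM-Empty and 26003 in RVKM-Ascl2, or 0.0641% and 3.40% of the library. The cause of this difference was not tested. Over these settings the log2 ratio ran from 0.86 to 0.98 for Ighm and from −0.35 to −0.24 for Ighg1. With the 1.5-fold limit Ighm (0.89) passed, and the count of members past the limit was 1 on the deposited scale. Together with a rescaling, added after seeing the data, it was 2 of 7 under both that leave out immunoglobulin genes, where Ighg3 also passed at 0.59 and 0.64, and 1 under the other two. The Ighg2c log2 ratio turned to 0.00052 when sums without immunoglobulin genes were set equal and to 0.042 without Pcdh15 as well, and that of Igha to −0.0098 when the full sums were. Without Ighm, the ratio of the heavy chain total was 0.869. The change in share was then −0.165 percentage points for Ighd, 2.54 for Ighg3, −6.75 for Ighg1 and 0.944 for Ighg2b. It was 0.0248 for Ighg2c, 3.39 for Ighe and 0.0101 for Igha. For Ighg3, Ighg2b, Ighg2c, Ighe and Igha the sign was reversed against the share of the heavy chain total, where Ighm is in the denominator. The median of the Fc receptor list was 0.02 with a filter of 5. Shares weighted by transcript length were not run, because the reference gives gene spans with introns. No paired analysis was possible because each group has 1 library. Depth is unknown, so the low values of Ighg2c and Igha carry no stated precision.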

Other observations

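Among the 28 pairs of the 8 genes, Ighm over Ighg1 differed most between the libraries, at 3.47 in RVKM-Empty and 8.06 in RVKM-Ascl2. Ighg2c over Igha differed least, at 3.14 and 3.05, but both genes were low. Ighd and Ighg1, which lie on either side of Ighg3, kept nearly the same ratio to each other, with Ighd at 0.0468 of Ighg1 in RVKM-Empty and 0.0488 in RVKM-Ascl2. These pairs were singled out after their values were seen.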
